A study of Mus musculus with 2 samples.

Results

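The cells described here are fibroblasts (FB) from mouse gut grafts that carried transcripts of the FGF receptor gene Fgfr2, the metalloprotease-like gene Adamdec1, the secreted hedgehog-pathway protein gene Scube1 and the collagen VI chain gene Col6a5. They are called Fgfr2/Adamdec1 FB below. A cell was included if it showed 500 genes or more with no more than 10% of UMIs from mitochondrial genes, held at least 1 UMI of the fibroblast matrix gene Dcn and held a UMI of at least 2 of the 4 markers. Cells with UMIs of 2 or more of Bmp3, Bmp5 and Bmp7, or of 2 or more of Pi16, Scara5, Dpp4 and Sema3c, were left out. In the large intestinal (LI) graft library 2350 of 9275 Dcn-positive cells qualified (25.3%, 95% exact binomial interval 24.5 to 26.2), and in the small intestinal (SI) graft library 1922 of 7048 did (27.3%, 26.2 to 28.3). This made 4272 of the 16323 Dcn-positive cells and of the 17783 cells in all.

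Both libraries were mesenchymal stromal cells (MSC) of grafted embryonic intestine. The embryos, with the strain label EYFP (C57BL/6), had EYFP fathers and C57BL/6Nrj mothers. The tissue had grown beneath the capsule of a kidney in adult wild-type mice, and the grafts were removed after 4 weeks. Live cells that were YFP+ and Itgb1+ and lacked CD45, Ter119, BP3, CD31, EpCAM and L1CAM had been sorted. This gate was meant to keep donor cells and to leave out cells with those antigens. The paper states that purity after its sorts was incomplete and that contaminating cells were taken out computationally. No such removal was made here beyond the limits given above. LI grafts had been pooled, whether SI grafts were pooled was not given in the sources used here, and there was 1 library per group. A 3′ or a 5′ 10x kit had been used, and since the kit of each library was not given, kit and gut segment cannot be told apart.

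The fibroblasts of the intestinal lamina propria lie between the epithelium, the vessels and the muscle layer, build the matrix and send growth factors to their neighbours. The subepithelial fibroblasts with high PDGFRA supply BMP ligands toward the villus or the crypt top, while CD81-expressing fibroblasts near the crypt base supply BMP antagonists and R-spondins. The Fgfr2-expressing population lies in the lamina propria between these and is recognised in adult gut by Fgfr2 and Adamdec1. FGFR2 binds fibroblast growth factors, ADAMDEC1 is a secreted protease with a degenerate active site, SCUBE1 is a secreted and membrane-bound protein with CUB and EGF-like domains, and COL6A5 is a chain of the beaded filaments of collagen VI.

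The Fgfr2/Adamdec1 FB had a median of 5193 UMIs per cell in LI grafts (791 to 27892) and 5847.5 in SI grafts (688 to 35438), against 5490 and 5837.5 in the other Dcn-positive cells. The library totals were 63348069 UMIs over 11568 barcodes and 54918006 over 9631. The libraries had 26 barcodes in common, 6 of which belonged to LI and 2 to SI Fgfr2/Adamdec1 FB. The pooled cells came from embryos of both sexes, judged by UMIs of Xist or of Y-linked genes, and the sexes were unequally spread: 90.7% of LI Fgfr2/Adamdec1 FB were female and 3.49% male (82 cells), against 77.7% and 10.8% of the other LI Dcn-positive cells. In SI grafts the shares were 54.9% and 24.8%, against 57.0% and 23.1%. Markers of several other cell types were low in the selected cells. The summed level of 5 endothelial markers was 5.29 CPM in LI and 5.91 CPM in SI (CPM being UMIs of a gene per 1000000 UMIs, pooled over a cell group), of 4 epithelial markers 4.47 and 3.20 CPM, of 4 glial or neuronal markers 4.17 and 2.0 CPM, of 4 kidney tubule markers 0.819 and 1.20 CPM and of 4 erythroid markers 0.298 and 0.240 CPM. The 6 immune markers summed to 57.9 and 67.2 CPM, with Cd3e at 0 UMIs in LI. Muscle and pericyte markers were not low throughout. The 6 smooth muscle markers summed to 653 CPM in LI and 768 CPM in SI, against 402 and 1306 CPM in the other Dcn-positive cells, and the 6 pericyte markers to 195 and 1051 CPM, against 439 and 1071 CPM. Their part in the results was not tested. The general fibroblast list of Col1a1, Col1a2, Col3a1, Pdgfra, Lum, Dpt and Pdpn had a median log2 difference to the other Dcn-positive cells of -0.13 in LI and -0.16 in SI, and none of its 7 genes differed 2-fold. Fibroblast transcripts were thus present at the level of the other Dcn-positive cells, whereas a position in the lamina propria could not be checked in dissociated cells.

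Adamdec1, the most abundant of the 4 markers, was detected in 98.8% of LI and 97.8% of SI Fgfr2/Adamdec1 FB, Scube1 in 72.5% and 65.0%, Fgfr2 itself in 36.2% and 35.7%, and Col6a5 in 26.7% and 52.0%. In mural cells, which lack Dcn UMIs and hold vascular muscle or pericyte markers, Fgfr2 was seen in 3.05% and 2.08% of cells at median depths of 4187.5 and 4407.5 UMIs, and Adamdec1 in 13.7% and 7.76%. Adamdec1 was also detected in 40.5% of the other Dcn-positive cells of LI and 34.7% of those of SI. With each cell thinned to 2000 UMIs, Fgfr2 was detected in 16.7% of LI Fgfr2/Adamdec1 FB and in 1.32% of LI mural cells. Adamdec1 with Scube1 alone was the commonest combination (1022 LI cells, 43.5%, and 544 SI cells, 28.3%). All 4 markers were found in 75 LI cells (3.19%) and 162 SI cells (8.43%). Of the others, 1622 LI and 1113 SI cells held 2 markers, and 653 and 647 held 3. Only 29 LI and 43 SI cells qualified without Adamdec1.

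The levels below chose the cells and are given as a description. Fgfr2 (chr7:130162451-133123350, minus strand, GRCm38, GENCODE vM21) stood at 81.4 CPM in LI Fgfr2/Adamdec1 FB and 80.0 CPM in SI, against 5.31 and 5.23 CPM in the other Dcn-positive cells. Scube1 (chr15:83604999-83725021, minus strand) stood at 193 and 168 CPM, against 16.4 and 22.0 CPM. Col6a5 (chr9:105856078-105960643, minus strand) was at 91.0 CPM in LI and 212 CPM in SI, against 5.31 and 9.72 CPM. Adamdec1 (chr14:68563380-68582095, minus strand) reached 6843 and 5581 CPM, against 1763 and 921 CPM. Adamdec1 was not limited to the selected cells. The cells with 2 or more of Bmp3, Bmp5 and Bmp7 (BMP cells, 535 in LI and 451 in SI) had 9032 CPM in LI, above the Fgfr2/Adamdec1 FB, and 3706 CPM in SI, below them. The Pi16 cells (949 and 605) had 379 and 363 CPM, and mural cells 147 and 69.7 CPM. Of the genes used to leave cells out, Bmp5 remained at 69.1 CPM in LI and 39.4 CPM in SI Fgfr2/Adamdec1 FB and Sema3c at 80.5 and 56.6 CPM, while Pi16 was at 21.1 and 4.87 CPM.

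**Figure D1:**
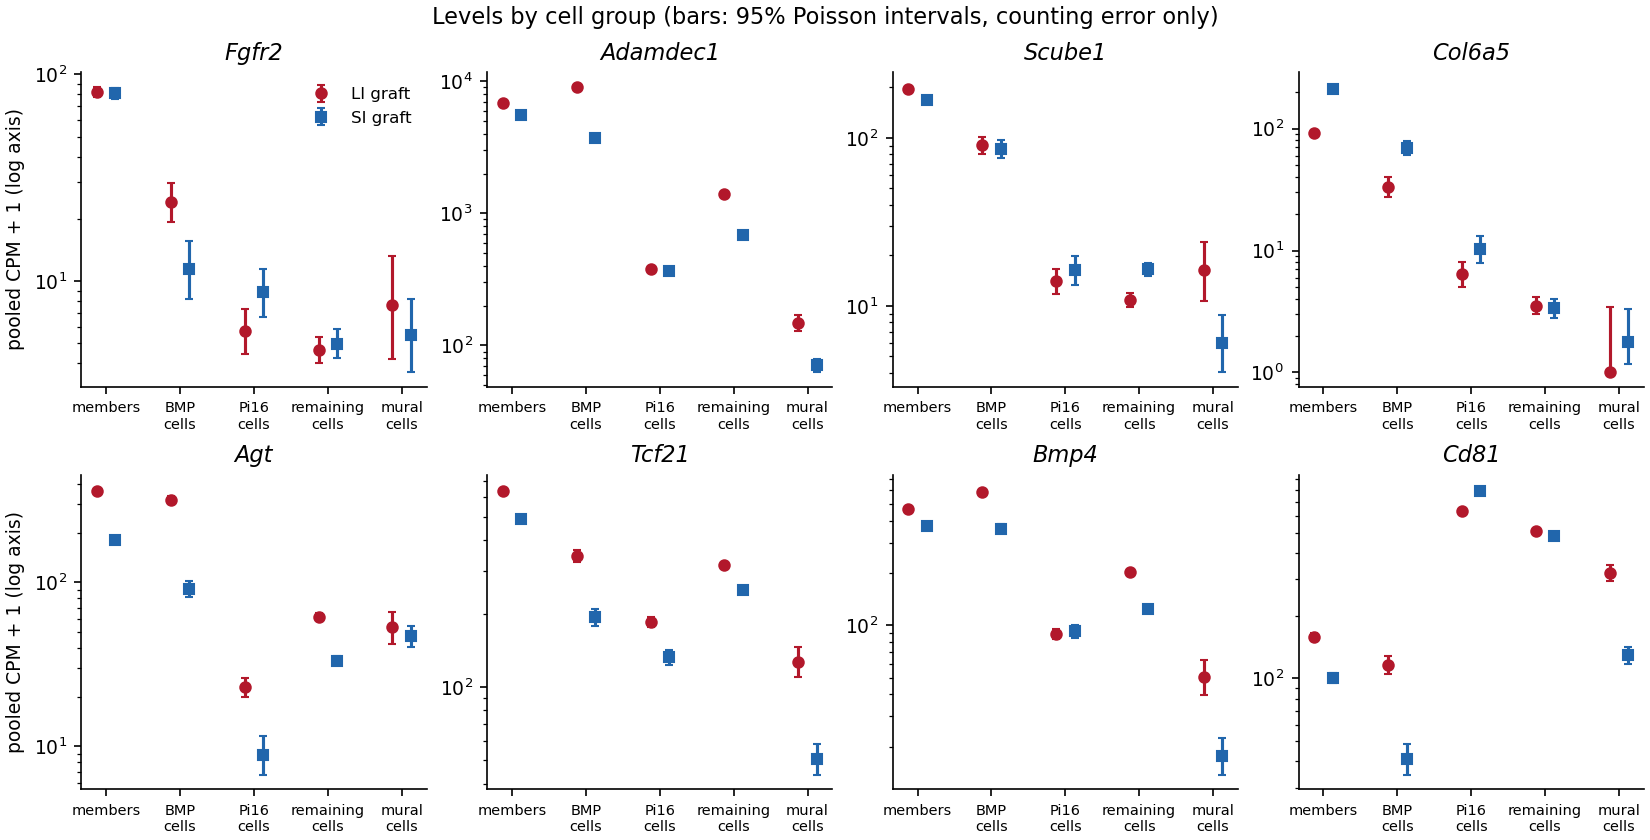
Pooled CPM plus 1 (log axis) of the 4 markers, Agt, Tcf21, Bmp4 and Cd81 in the Fgfr2/Adamdec1 FB (members), BMP cells, Pi16 cells, the remaining Dcn-positive cells and mural cells of LI grafts (red circles) and SI grafts (blue squares), with exact 95% Poisson intervals as bars. Fgfr2, Scube1 and Col6a5 were highest in the selected cells, Adamdec1 was higher in LI BMP cells (9032 against 6843 CPM), and Cd81 was lowest in BMP cells and next lowest in the selected cells.

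At the edge of the rule, cells with exactly 2 markers had 49.3 CPM of Fgfr2 in LI and 38.8 CPM in SI, while cells with 1 marker that were neither BMP nor Pi16 cells had 8.39 and 9.67 CPM. The corresponding Adamdec1 levels were 6537 and 4267 CPM inside and 3244 and 1674 CPM outside. The 325 LI and 284 SI cells that held 2 or more markers but were left out by the BMP or Pi16 genes had 45.6 and 27.7 CPM of Fgfr2 and 213 and 177 CPM of Bmp5. Each marker was then read in cells chosen by the other 3 alone, without its own UMIs. Fgfr2 was at 56.8 CPM in the 1983 LI cells so chosen and at 14.6 CPM in the cells not chosen, and at 66.1 against 12.7 CPM in SI. The log2 differences were 1.89 and 2.29 for Fgfr2, 1.47 and 2.19 for Adamdec1, 1.69 and 1.73 for Scube1 and 2.04 and 2.49 for Col6a5. Each of the 4 transcripts was thus higher in the cells chosen by the others, in both libraries. With each cell thinned to 2000 UMIs, 15.4% of LI and 17.8% of SI Dcn-positive cells met the rule, and 93.1% and 92.2% of these were among the cells selected on all UMIs. Thinning only removes UMIs, so a cell could be new to the selection only by losing UMIs of the BMP or Pi16 genes. The overlap was therefore largely set by construction.

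The genes were next compared between the Fgfr2/Adamdec1 FB and all other Dcn-positive cells of the same library, on the log2 scale of CPM plus 1. Among 8434 genes with at least 10 CPM in 1 of the 2 cell groups of each library, 53 were at least 2-fold higher in the selected cells of both libraries (0.628%) and 117 at least 2-fold lower (1.39%). Within LI 138 were higher (1.64%) and 218 lower (2.58%), and within SI 100 were higher (1.19%) and 185 lower (2.19%). A single gene, Rbp4, was 2-fold higher in LI and 2-fold lower in SI (0.0119%), and a single gene, Saa3, was the reverse (0.0119%). The LI difference of Rbp4 was under 2-fold within each sex (log2 0.93 in female and 0.25 in male cells). The selection used the same contrast, so these counts and all values of it are a description. The median over all genes was -0.01 in LI and -0.00 in SI. Intervals on CPM are exact 95% Poisson intervals and cover counting error only.

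Agt (chr8:124556534-124569706, minus strand), which encodes angiotensinogen, the precursor of angiotensin peptides, came first in the ranking of named genes higher in both libraries. Agt was at 361 CPM (351 to 371) in LI and 181 CPM (174 to 189) in SI Fgfr2/Adamdec1 FB, against 71.8 and 33.8 CPM in the other Dcn-positive cells, log2 differences of 2.31 and 2.39. The LI BMP cells held a similar level of Agt, 317 CPM, and the LI Pi16 cells 21.9 CPM. Agt UMIs were found in 53.7% of LI and 37.5% of SI Fgfr2/Adamdec1 FB and in 15.2% and 15.8% of mural cells.

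Genes of secreted signals and their receptors were among the 15 genes named by the ranking. Bmp4, a BMP ligand, stood at 469 and 374 CPM in LI and SI, against 208 and 141 CPM, and LI BMP cells held more (586 CPM). The prostaglandin E2 receptor gene Ptger4 had 90.1 and 66.6 CPM, against 34.0 and 26.6 CPM. The leptin receptor gene Lepr had 57.8 and 133 CPM, against 25.3 and 57.2 CPM. Cxcl16, a membrane-bound chemokine, had 199 and 242 CPM, against 92.1 and 83.9 CPM. Bmp4 was thus shared with BMP cells in both libraries, whereas Ptger4, Lepr and Cxcl16 were each highest in the Fgfr2/Adamdec1 FB among the groups of Dcn-positive cells.

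Adhesion and guidance receptors formed a further part of the ranking. Ncam1, a neural cell adhesion molecule, was at 314 and 385 CPM, against 126 and 144 CPM. Robo2, a receptor for SLIT guidance proteins, was at 132 and 136 CPM, against 62.6 and 60.6 CPM, and Adgrl3, an adhesion G protein-coupled receptor, at 65.2 and 58.1 CPM, against 24.7 and 21.4 CPM. LI BMP cells exceeded the Fgfr2/Adamdec1 FB for Robo2 (182 CPM) and Adgrl3 (98.1 CPM) but not for Ncam1 (253 CPM). Chst15, a sulfotransferase that modifies chondroitin sulfate, had 65.7 and 65.4 CPM, against 21.5 and 22.8 CPM. Vstm4 (134 and 154 CPM), Ly6h (242 and 183 CPM), the Toll-like receptor partner Tril (109 and 113 CPM), Shisa3 (53.6 and 91.7 CPM) and the membrane protein Tmem176a (1195 and 1444 CPM) completed the group with log2 differences between 1.02 and 1.67.

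The transcription factor gene Tcf21, known for its role in mesenchyme of kidney, lung and spleen, stood at 637 CPM (623 to 650) in LI and 488 CPM (476 to 500) in SI Fgfr2/Adamdec1 FB, against 291 and 224 CPM. In no other group of Dcn-positive cells did it exceed 345 CPM. Of the 20 genes in a list of gut mesenchyme transcription factors, 16 could be compared, of which Tcf21 and the hindlimb and hindgut factor gene Pitx1 were at least 2-fold higher in both libraries and none lower (list medians 0.32 and 0.17). Within the sexes of LI the log2 difference of Tcf21 was just under 2-fold, at 0.995 in female and 0.88 in male cells. TCF21 binds E-boxes, of which CAGCTG is 1 form. Of the 4 markers, 3 had RefSeq promoters (250 bases before to 50 after the transcript start, GRCm38.p6), and the Col6a5 promoter held this motif 2 times. It is shown because it was the only 1 of these 3 promoters with a match, and a link between Tcf21 and Col6a5 was not tested. Capitals mark the 2 motif matches in the promoter at chr9:105960594-105960893, minus strand.
Col6a5: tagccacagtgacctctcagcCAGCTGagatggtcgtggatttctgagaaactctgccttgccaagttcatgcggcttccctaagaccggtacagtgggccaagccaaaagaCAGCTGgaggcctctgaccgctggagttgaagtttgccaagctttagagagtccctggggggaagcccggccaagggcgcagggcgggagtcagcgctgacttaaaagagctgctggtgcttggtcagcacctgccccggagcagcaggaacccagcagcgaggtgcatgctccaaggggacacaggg
The matches began 229 and 138 bases before the transcript start. CAGCTG reads the same on both strands and occurred in 16.3% of the 32851 promoters in the table, and in 5 of the 19 promoters that 12 of the 15 named genes had. Such a match is a description of the letters and not a binding site.

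Genes lower in the Fgfr2/Adamdec1 FB included markers of CD81 FB. Igfbp6, which encodes a binding protein for IGF2, was at 100 and 54.5 CPM, against 569 and 522 CPM in the other Dcn-positive cells, log2 differences of -2.49 and -3.24. Cd81 (chr7:143052739-143067934, plus strand), a tetraspanin, was at 157 and 99.8 CPM, against 506 and 488 CPM. The pleiotrophin gene Ptn had 94.9 and 116 CPM, against 504 and 756 CPM, and Ebf1, an early B cell factor also found in stromal precursors, had 51.1 and 43.2 CPM, against 254 and 195 CPM. The remaining genes of the ranking were Ndufa4l2, Smoc2, Fxyd6, Lbp, Thbs4 and the unannotated Gm12840, at 16 to 78.1 CPM in the selected cells and -1.75 to -2.69 on the log2 scale. Of the list of 7 CD81 FB markers, Cd81, Ackr4 and Igfbp6 were at least 2-fold lower in both libraries and Grem1 was not (441 against 472 CPM in LI and 849 against 712 CPM in SI). Of 11 surface markers used for sorting, Cd81, Thy1 and Esam were at least 2-fold lower in both libraries. In female SI cells alone Thy1 was under 2-fold lower, at 20.1 against 35.7 CPM (log2 -0.80).

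**Figure D2:**
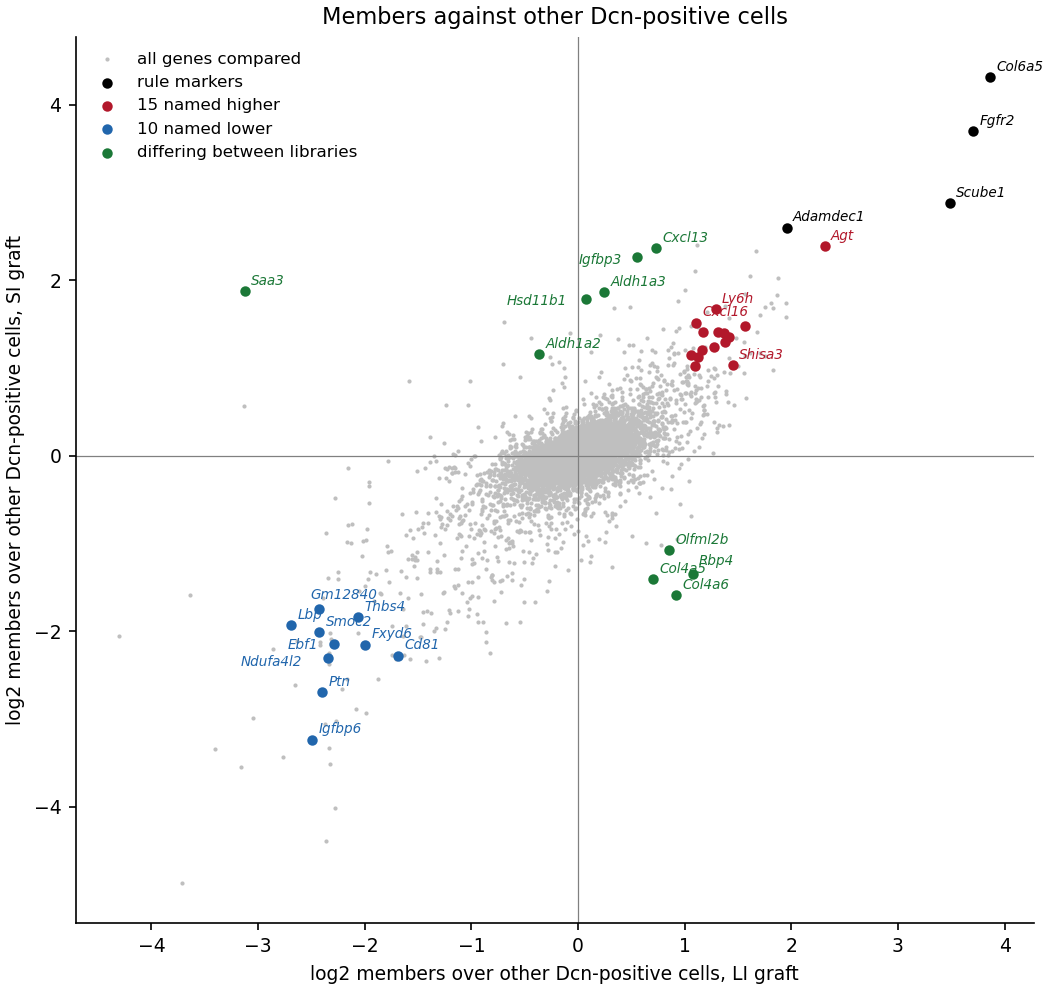
Log2 difference of the Fgfr2/Adamdec1 FB to the other Dcn-positive cells in LI grafts (horizontal axis) against SI grafts (vertical axis) for the 8434 genes compared (grey), with the rule markers in black, the 15 named higher genes in red, the 10 named lower genes in blue and 10 genes that differed between the libraries in green. Agt lay closest to the markers at 2.31 and 2.39, and Rbp4 and Saa3 lay in opposite corners with values above 0 in 1 library and below 0 in the other.

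The named genes were ranked on the pooled values of these same cells, so agreement after a split by sex is partly built in. In each of the 4 sets made by library and sex the 15 named higher genes were higher in the Fgfr2/Adamdec1 FB, and 8 of them were 2-fold higher in all 4 sets. The others were Ncam1, Ptger4, Bmp4, Tcf21, Robo2, Shisa3 and Tril. The 10 lower genes were lower in all 4 sets and 2-fold lower for 9 of the 10. The exception was Cd81, at 354 against 498 CPM in male LI cells (log2 -0.49) and at -1.94 in female LI cells. Among genes of the lists below, the male LI values were also under 2-fold for Gdf10 (-0.65), Ccl7 (-0.85), Hhip (0.28), Ptch1 (0.89) and Foxf2 (0.97), and these rest on 82 selected cells. Female and male cells of a library came from different embryos.

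Compared directly with BMP cells, which carry the markers of PDGFRAhi FB, 121 of the 8434 genes were 2-fold higher in the Fgfr2/Adamdec1 FB of both libraries (1.43%) and 117 were 2-fold lower (1.39%). The receptor gene Pdgfra was at 160 and 177 CPM in LI and SI Fgfr2/Adamdec1 FB and at 464 and 989 CPM in BMP cells, and Sox6, a transcription factor of PDGFRAhi FB, at 11.9 and 6.63 CPM and at 207 and 278 CPM. Sox6 belonged to a list of 5 PDGFRAhi FB markers, of which 4 could be compared with all other Dcn-positive cells. None was 2-fold different in both libraries, 1 was 2-fold higher in LI and 2 were 2-fold lower in SI (list medians -0.73 and -0.90). Grem1 and Rspo3 differed the other way. Grem1 was at 441 and 849 CPM in Fgfr2/Adamdec1 FB and 116 and 123 CPM in BMP cells, and Rspo3 at 102 and 157 CPM and at 30.0 and 46.3 CPM.

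Against Pi16 cells, 286 genes were 2-fold higher in both libraries (3.39%) and 173 lower (2.05%). Clec3b, which encodes tetranectin, was at 271 and 469 CPM in Fgfr2/Adamdec1 FB and 961 and 1480 CPM in Pi16 cells. The complement gene C3 was at 119 and 415 CPM and at 987 and 1005 CPM.

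To name genes whose pattern followed the markers within the Dcn-positive cells, the number of the 4 markers detected was correlated with the level of each of 4910 genes over 8647 LI and 6629 SI cells thinned to 2000 UMIs. The values describe cells that share a library. Ranked by the mean Pearson r of the 2 libraries, Tmem176a came first (0.38 in LI and 0.40 in SI), followed by Tmem176b (0.32 and 0.40), Bmp4 (0.30 and 0.36), Agt (0.34 and 0.30) and Ncam1 (0.29 and 0.33). The order within 1 library differed. Zeb2, Rarres2, Plpp3, Wnt4 and Tcf21 completed the first 10.

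The FGF pathway was described first among the signalling genes. Of 10 FGF ligand and receptor genes besides Fgfr2, 5 could be compared in both libraries. Fgf10, a ligand of the epithelial form of FGFR2, was 2-fold higher and the ligand genes Fgf9 and Fgf18 were 2-fold lower in both. Fgf10 (chr13:118669791-118792115, plus strand) was at 67.4 CPM (63 to 71.9) in LI and 15 CPM (13 to 17.3) in SI Fgfr2/Adamdec1 FB, against 30.6 and 2.02 CPM, and was lower in BMP cells (22.8 and 2.76 CPM) and Pi16 cells (16.1 and 0.698 CPM). Fgf9 was at 6.03 and 2.08 CPM, while BMP cells held 102 and 120 CPM. Fgfr1 was at 121 and 117 CPM, within 0.25 of the other cells on the log2 scale. Fgf10, which the rule did not use, was thus highest in the Fgfr2/Adamdec1 FB among the groups of Dcn-positive cells in the pooled values of both libraries. The hepatocyte growth factor gene Hgf had 43.8 and 42.0 CPM, against 21.1 and 20.2 CPM, and was the only 1 of the 5 compared EGF-family and HGF genes that was 2-fold higher in both libraries. In female cells alone the log2 difference of Hgf was just under 2-fold, at 0.97 in LI and 0.98 in SI. The EGF-family ligand gene Ereg was at 62.1 against 18.7 CPM in SI and at 85.8 against 67.5 CPM in LI. Within the sexes of LI it was at 46.5 against 23 CPM in female and 576 against 186 CPM in male cells.

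The promoter window of Fgf10 is shown because it held a forkhead core, and levels of forkhead genes of the gut mesenchyme are given beside it. A link between these genes and Fgf10 was not tested. Foxf2 was at 37.7 and 34.8 CPM in the Fgfr2/Adamdec1 FB, against 15 and 16.9 CPM, and Foxf1 at 227 and 189 CPM, against 120 and 143 CPM. BMP cells held still more of both, 80.4 and 64.1 CPM of Foxf2 and 323 and 297 CPM of Foxf1. Capitals mark the forkhead core TGTTTAC in the RefSeq promoter at chr13:118714449-118714748, plus strand.
Fgf10: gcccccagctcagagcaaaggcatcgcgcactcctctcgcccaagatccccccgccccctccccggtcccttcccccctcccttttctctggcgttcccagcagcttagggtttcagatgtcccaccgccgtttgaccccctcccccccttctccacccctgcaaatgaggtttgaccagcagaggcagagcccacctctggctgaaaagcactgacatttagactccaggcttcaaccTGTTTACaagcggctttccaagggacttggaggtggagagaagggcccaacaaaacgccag
The match began 11 bases before the transcript start. This RefSeq window lies inside the gene interval given above and not at its start. Such a match is a description of the letters and not a binding site. Searched on both strands, TGTTTAC occurred in 3.65% of the 32851 promoters, in 0 of the 19 promoters of the named higher genes, in 0 of the 3 of the markers and in 2 of the 6 of the 5 genes Ptch1, Fgf10, Foxf2, Hgf and Wnt4, those being 1 of Fgf10 and 1 of Hgf.

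BMP and Wnt genes were compared next. Of the 5 BMP ligand genes compared, Bmp4 was 2-fold higher and Gdf10 2-fold lower in both libraries. Of 9 BMP antagonist genes, only Fst was 2-fold lower in both (17.0 and 3.76 CPM, against 95.2 and 20.2 CPM). Wnt4, a Wnt ligand, was at 284 CPM (275 to 294) in LI, against 105 CPM, and at 116 CPM (110 to 122) in SI, against 59.7 CPM. In male LI cells alone Wnt4 was at 127 against 123 CPM, and in female LI cells at 303 against 101 CPM. BMP cells exceeded both values with 486 and 284 CPM. Wnt5a, in contrast, was lower in the Fgfr2/Adamdec1 FB (42.9 and 47.9 CPM) than in BMP cells (253 and 372 CPM). Of the 6 Wnt and R-spondin genes compared, only Rspo1 was 2-fold lower in both libraries (6.33 and 4.23 CPM, against 29.7 and 20.2 CPM), with a log2 difference of 0.29 in male LI cells alone. Rspo3, whose product enhances Wnt signalling in crypts, was at 102 and 157 CPM, against 105 and 117 CPM. Sfrp1, a secreted Wnt antagonist, was at 1341 and 3133 CPM, against 804 and 1560 CPM, and exceeded every other group of Dcn-positive cells in both libraries, while Sfrp4 was lower (17.1 and 2.16 CPM, against 123 and 33.0 CPM).

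Of 10 compared hedgehog pathway genes, Gas1 and Cdon, co-receptors that bind hedgehog ligands, were 2-fold lower in both libraries. Gas1 had 109 and 114 CPM, against 407 and 293 CPM. The receptor and target gene Ptch1 was at 227 CPM (219 to 235) and 164 CPM (157 to 171), against 92.8 and 82.0 CPM, log2 differences of 1.28 and 0.99. The ligand-binding Hhip had 17.5 and 15.2 CPM, against 7.57 and 9.63 CPM, and Gli1 18.8 and 17.3 CPM, against 12.8 and 13.3 CPM. Ptch1, Hhip and Gli1 were thus all higher in the selected cells, by at least 2-fold in the pooled LI values for Ptch1 and Hhip and by less in SI and in male LI cells, and BMP cells held more Ptch1 (307 and 231 CPM).

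Chemokine genes included Cxcl16 as the only 1 of 13 that was 2-fold higher in both libraries and Ccl7 as the only 1 that was 2-fold lower. Cxcl12, which retains lymphocytes and blood progenitors, was at 1027 and 934 CPM, against 460 and 587 CPM. Ccl11, the eotaxin gene, was at 378 and 549 CPM, against 211 and 268 CPM. Cxcl13, a B cell chemokine, was at 27.3 CPM in LI and 56.7 CPM in SI, against 16 and 10.2 CPM, in 5.06% and 10.5% of the selected cells and in 0.305% and 0.416% of mural cells. Of the matrix genes, Col8a1 among 19 collagens and Fbln2 among 16 proteoglycan and elastic fibre genes were 2-fold lower in both libraries and none was 2-fold higher in both. Col18a1, a basement membrane collagen, came closest with 264 and 310 CPM, against 119 and 166 CPM. Of 6 prostaglandin genes, Ptger4 alone was 2-fold higher in both libraries, and the cyclooxygenase gene Ptgs1 had 49.8 and 79.7 CPM, against 25.2 and 41.4 CPM. The IGF list had Igfbp6 as its only gene 2-fold lower in both of 6, and the guidance list Sema3d of 9.

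No gene was 2-fold different in both libraries among 10 genes of the TGF-beta axis, 13 ADAM and ADAMTS proteases, 8 MMP and TIMP genes, 9 basement membrane genes, 9 complement genes, 6 cytokines, 5 genes of retinoid metabolism, 4 MHC class II genes, 12 interferon response genes, 10 immediate early and heat shock genes, 6 cell cycle genes and 7 smooth muscle contractile genes. Lists of these sizes would hold few or no such genes at the shares over all genes (0.628% higher and 1.39% lower). The immediate early genes Fos and Jun, which respond to tissue dissociation, were abundant and were higher in the LI selected cells (8020 and 7950 CPM) than in the other LI cells (5914 and 4965 CPM), whereas SI values were 5834 and 5042 CPM, against 6055 and 4368 CPM. Their part in the other results was not tested.

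Within the Fgfr2/Adamdec1 FB the levels of several genes differed with how many of the markers a cell held, although the median depth differed little (5119.5, 5434 and 5504 UMIs for 2, 3 and 4 markers in LI, and 5926, 5781 and 5840.5 UMIs in SI). In SI grafts Agt was at 108 CPM in cells with 2 markers, 244 CPM with 3 and 426 CPM with 4, while SI Dcn-positive cells with no marker that were neither BMP nor Pi16 cells held 9.01 CPM. Igfbp3, a binding protein for IGFs, was at 100, 267 and 344 CPM in the same order in SI but at 360, 365 and 288 CPM in LI. Ccl11 was at 375, 690 and 1155 CPM in SI and 320, 474 and 736 CPM in LI. Cxcl13 followed with 29.7, 86.0 and 123 CPM in SI, and Aldh1a3, an enzyme that makes retinoic acid, with 106, 234 and 345 CPM. In LI, Cxcl13 was at 26.4, 27 and 50.3 CPM and Aldh1a3 at 31.4, 37.8 and 27.4 CPM, so that the steps of these genes were seen in SI grafts.

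Grem1, the BMP antagonist of CD81 FB, went the other way, at 1053, 606 and 440 CPM in SI and 526, 257 and 299 CPM in LI. Rspo3 was at 189, 121 and 82.0 CPM in SI and 118, 65.8 and 84.5 CPM in LI. Both were therefore lower in the cells with 3 or 4 markers than in those with 2, in both libraries, while Wnt4 was higher (56.7, 171 and 291 CPM in SI and 251, 353 and 379 CPM in LI). In LI the levels also differed by sex, with Grem1 at 285 CPM in female and 1861 CPM in male cells and Rspo3 at 84.7 and 262 CPM. The part of the sex makeup in these steps was not tested. Tcf21 and Ptch1 were also higher with more markers in SI (404, 574 and 708 CPM for Tcf21, and 143, 188 and 202 CPM for Ptch1). Cells with all 4 markers were few, 75 and 162.

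**Figure D3:**
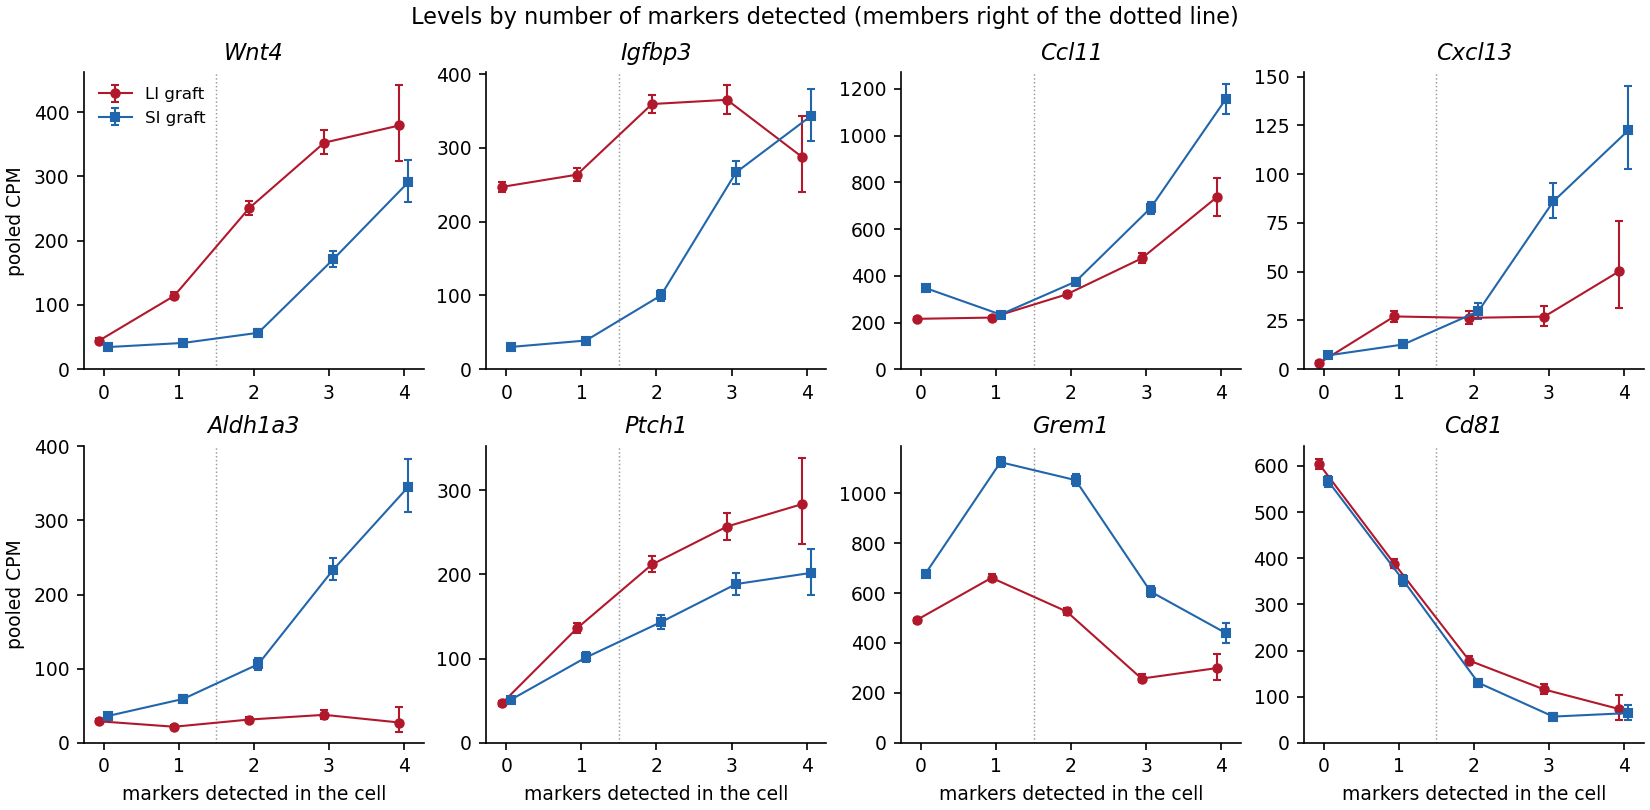
Pooled CPM of 8 genes (vertical axes) against the number of the 4 markers detected in a cell (horizontal axes) in LI grafts (red circles) and SI grafts (blue squares), where cells with 0 and 1 marker leave out BMP and Pi16 cells, bars are exact 95% Poisson intervals and the Fgfr2/Adamdec1 FB lie to the right of the dotted line. In SI grafts Igfbp3, Cxcl13 and Aldh1a3 were higher at each further marker from 1 to 4, in LI grafts Aldh1a3 stayed between 21.7 and 37.8 CPM, and Grem1 and Cd81 declined in both from 1 to 3 markers.

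Levels also differed with the marker found beside Adamdec1. In LI grafts, the 227 cells with Adamdec1 and Col6a5 alone held 694 CPM of Ccl11, against 284 CPM in the 1022 cells with Adamdec1 and Scube1 alone and 223 CPM in the 346 cells with Adamdec1 and Fgfr2 alone. In SI grafts the values were 674, 281 and 283 CPM. The MHC class II chain gene H2-Aa differed in the opposite direction in SI, with 27.7 CPM in the cells with Col6a5 and 177 CPM in those with Scube1. Among all SI Fgfr2/Adamdec1 FB, H2-Aa was at 41.7 CPM in female and 194 CPM in male cells. The part of the sex makeup in this difference was not tested. The 29 LI cells that qualified without Adamdec1 had a different profile, with 740 CPM of Ptn, 533 CPM of Cd81 and 30.1 CPM of Agt, and the 43 SI cells had 639, 341 and 8.12 CPM.

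Fgfr2/Adamdec1 FB of LI and SI grafts were then compared with each other. Among 8761 genes with at least 10 CPM in 1 of the libraries, 163 were at least 2-fold higher in LI (1.86%) and 194 at least 2-fold higher in SI (2.21%), with a median of -0.03 over all genes. The selection did not use this contrast, but each group was 1 library, so the differences are between these 2 libraries and carry no test.

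Hox genes, whose groups follow the gut from front to back, divided the libraries. Of the 8 compared Hox genes of groups 9 to 13, all 8 were 2-fold higher in LI, and of the 15 compared of groups 1 to 8, 13 were higher in SI and only Hoxd8 in LI. Over all genes 1.86% were 2-fold higher in LI and 2.21% in SI. Summed over the group 9 to 13 genes, LI Fgfr2/Adamdec1 FB held 343 CPM and SI cells 4.55 CPM. Hoxd10 and Hoxd11 stood at 31.0 and 38.0 CPM in LI and had no UMI in SI, where 3 UMIs would be 0.240 CPM, so that they were at least 129-fold and at least 159-fold higher in LI. The sum of groups 1 to 8 was 209 CPM in LI and 586 CPM in SI. The other Dcn-positive cells were divided in the same way, at 299 and 9.17 CPM for groups 9 to 13 and 257 and 488 CPM for groups 1 to 8. Pitx1, which is active in hindgut mesenchyme, was at 283 CPM (274 to 292) in LI and 29.3 CPM (26.4 to 32.5) in SI and was found in 66.3% and 9.94% of the cells. The gut factor gene Nkx2-3 was present in both, at 230 and 475 CPM.

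Several of the 12 genes ranked highest in LI relative to SI encode matrix or secreted proteins. Col4a6 and Col4a5, neighbouring genes for basement membrane collagen chains, were at 55.9 and 220 CPM in LI and 2.0 and 20 CPM in SI, log2 differences of 4.25 and 3.40. Rbp4, the plasma carrier of retinol, was at 188 and 12.9 CPM. Timp1, an inhibitor of metalloproteases, was at 385 and 86.9 CPM, and Postn, the matricellular protein periostin, at 1298 and 368 CPM. Fgf10 was also among them, with a log2 difference of 2.09 (1.94 to 2.40 by an exact binomial split of its UMIs without the added 1 CPM). Lgals3, Enho, Olfml2b, Ogn and Fxyd5 completed the 12 genes, at log2 differences between 1.91 and 2.88. Each of the 12 was also higher in LI in the female other Dcn-positive cells, for Timp1 at 999 against 154 CPM. In the male other cells Col4a6, Rbp4, Col4a5, Olfml2b, Ogn and Postn were not.

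The 12 genes ranked highest in SI are given next. Angptl1, an angiopoietin-like secreted protein, was at 418 CPM (407 to 430) in SI and 36.4 CPM (33.2 to 39.8) in LI and was detected in 62.1% and 8.30% of cells, against 5.96% and 4.88% of mural cells. Rgs5, an inhibitor of G protein signalling and a common pericyte marker, was at 966 and 95.9 CPM, against 834 and 253 CPM in the other Dcn-positive cells. None of the other 5 pericyte markers of the list was 2-fold higher in SI, and Kcnj8 (40.0 against 17.7 CPM) and Abcc9 (26.8 against 11.7 CPM) were 2-fold higher in LI. Notch3 and Kcnj8 were at 13.3 and 17.7 CPM in SI Fgfr2/Adamdec1 FB and were 2-fold lower than in the other Dcn-positive cells of both libraries. The 6 pericyte markers summed to 195 CPM in LI and 1051 CPM in SI, against 4407 and 4777 CPM in mural cells. Aldh1a2, which makes retinoic acid, was at 217 CPM in SI and 28.1 CPM in LI, and Lrat, which stores retinol as esters, at 97.2 and 7.07 CPM. With Aldh1a3 (170 and 33.1 CPM), 3 of 6 compared retinoid genes were 2-fold higher in SI and only Dhrs3 in LI (152 and 45.9 CPM). The shares over all genes were 2.21% and 1.86%. Hsd11b1, which regenerates active glucocorticoid, was at 188 and 26.6 CPM, and Hmcn1, Dkk2 and Mmp10 at 87.6, 117 and 58.9 CPM in SI and 12, 18.8 and 4.69 CPM in LI. Lrat, Angptl1, Mmp10, Rgs5, Aldh1a2, Hsd11b1, Hmcn1 and Dkk2 were also higher in SI in the other Dcn-positive cells of both sexes. Angptl1 was at 361 CPM in SI and 106 CPM in LI in the female other cells.

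Saa3 and the immunoglobulin genes Igkc, Igha and Jchain were in the same ranking but rested on few cells. A single SI cell of 16161 UMIs held 4520 of the 4621 Igkc UMIs, 1326 of the 1359 Igha UMIs and 984 of the 1002 Jchain UMIs. It also held 40 Dcn and 60 Adamdec1 UMIs and no Ptprc UMI. Saa3 was found in 40 LI and 75 SI Fgfr2/Adamdec1 FB, of which the 10 richest cells held 80.4% and 73.2% of its UMIs.

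**Figure D4:**
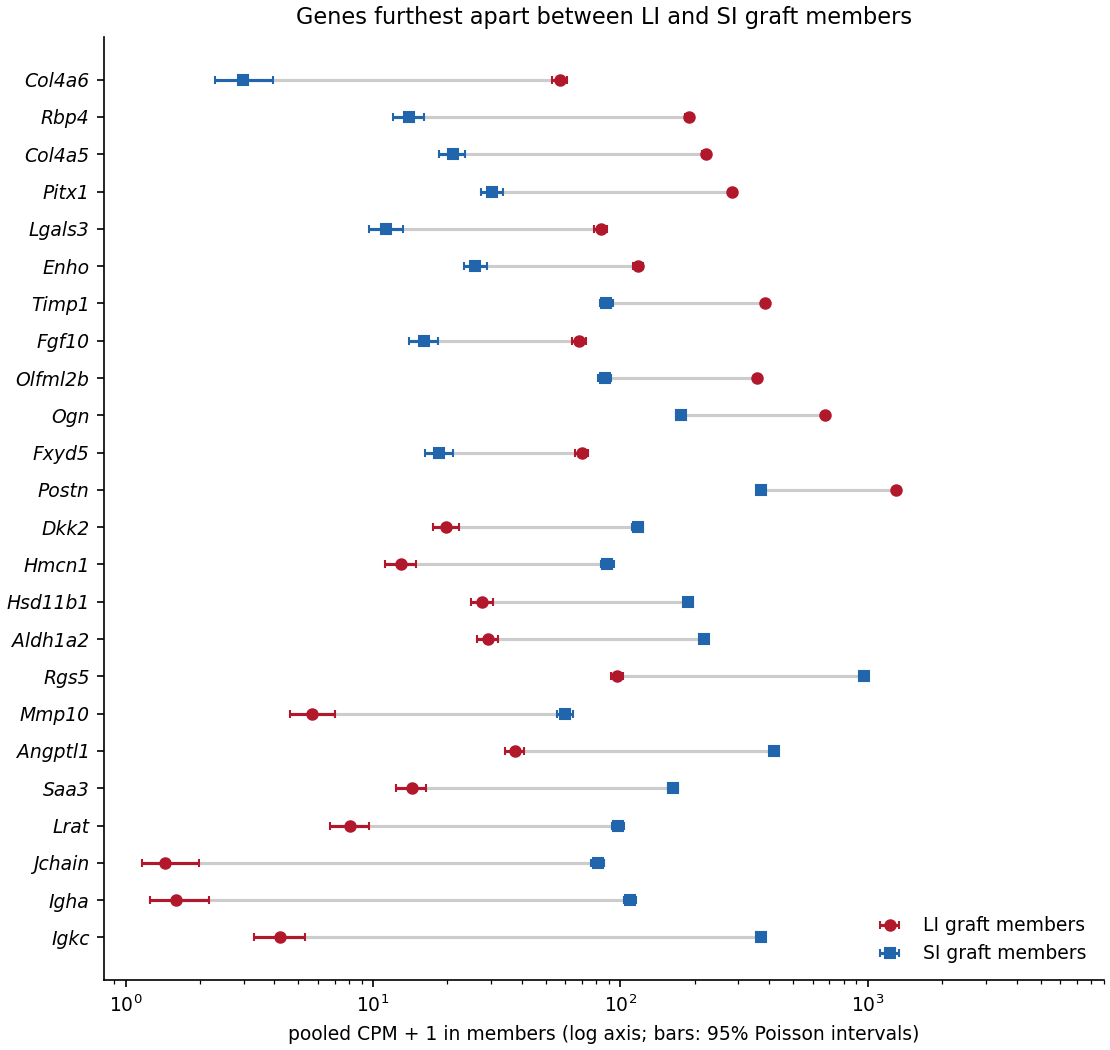
Pooled CPM plus 1 (log axis) of the 12 genes with the largest ratio in each direction in LI (red circles) and SI (blue squares) Fgfr2/Adamdec1 FB, with exact 95% Poisson intervals as bars. Col4a6 and Rbp4 lay furthest to the LI side, and Igkc, Igha and Jchain, which rested on 1 cell, lay furthest to the SI side, followed by Lrat, Saa3, Angptl1, Mmp10, Rgs5 and Aldh1a2.

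The difference between the gut segments was read against lists of adult Fgfr2 FB genes from bulk RNA-seq of other samples by the study. Of 257 compared genes listed as higher in adult colon than in adult SI, 51 (19.8%) were 2-fold higher in LI Fgfr2/Adamdec1 FB and 3 in SI, with a median of 0.31. Of 183 genes listed as higher in adult SI, 60 (32.8%) were 2-fold higher in SI and 4 in LI, with a median of -0.49. Over all 8761 compared genes 1.86% were 2-fold higher in LI and 2.21% in SI. In the other Dcn-positive cells the medians of these lists were 0.06 and -0.31. Col4a6, Col4a5, Pitx1, Olfml2b, Ogn and Fxyd5 of the LI ranking were in the colon list, and Lrat, Angptl1, Rgs5, Aldh1a2, Hsd11b1 and Hmcn1 of the SI ranking in the SI list.

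In the pooled values, the difference of some genes to the other Dcn-positive cells was larger in 1 library. Hsd11b1 was at 188 against 53.6 CPM in SI and at 26.6 against 25.2 CPM in LI, where it was at 17.7 against 17.5 CPM in female and 114 against 46.9 CPM in male cells. Aldh1a3 was at 170 against 46.0 CPM in SI and at 33.1 against 27.8 CPM in LI, and Igfbp3 at 177 against 36.3 CPM in SI and at 359 against 245 CPM in LI. Both LI differences turned in male cells, with Aldh1a3 at 15.9 against 20.8 CPM and Igfbp3 at 274 against 341 CPM. Conversely, Col4a5 was at 220 against 134 CPM in LI and at 20 against 54.5 CPM in SI. BMP cells held the most Col4a5 in both libraries, 529 and 278 CPM. These differences between the libraries were not tested.

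Cells of the 2 sexes, which came from different embryos, were not alike in LI grafts. Fgfr2/Adamdec1 FB made up 28.4% (27.4 to 29.4) of the female and 9.90% (7.95 to 12.1) of the male LI Dcn-positive cells, but 26.5% (25.2 to 27.9) and 28.7% (26.5 to 30.9) in SI. The 82 male LI cells had a median of 7235 UMIs and the 2132 female ones 5136.5 UMIs. Adamdec1 stood at 7523 CPM in female and 1347 CPM in male LI Fgfr2/Adamdec1 FB, and at 5302 and 5825 CPM in SI. Col6a5 was at 101 CPM in female and 7.93 CPM in male LI cells, while Scube1 was at 200.2 and 154 CPM. Timp1 was at 218 CPM in female and 1562 CPM in male LI cells, Grem1 at 285 and 1861 CPM, and Postn at 1411 and 322 CPM.

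The MHC class II genes differed between the sexes in both libraries. Their summed level was 141 CPM in female and 1564 CPM in male LI Fgfr2/Adamdec1 FB and 228 and 1346 CPM in SI. The 12 interferon response genes summed to 1553 and 3030 CPM in LI and 2067 and 4285 CPM in SI. In the pooled comparison 4 of 4 MHC class II genes and 6 of 12 interferon genes were 2-fold higher in SI, among them H2-Aa (105 against 46.6 CPM), Cd74 (351 against 136 CPM) and Gbp2 (257 against 81.7 CPM), and the chemokines Cxcl9 and Cxcl10, which interferon induces, were at 880 and 2007 CPM in SI and 233 and 674 CPM in LI. Over all genes 2.21% were 2-fold higher in SI. In male cells alone H2-Aa was at 251 CPM in LI and 194 CPM in SI. In LI all 4 MHC class II genes were also 2-fold lower in the Fgfr2/Adamdec1 FB than in the other Dcn-positive cells, with H2-Aa at 46.6 against 107 CPM, but within the sexes H2-Aa was at 23.5 against 35.8 CPM in female and 251 against 330.3 CPM in male LI cells. The part of the sex makeup in these differences was not tested. The rankings between the libraries used these same cells, so agreement within the sexes is partly built in. Of the 12 genes ranked highest in LI, 10 were higher in LI in both sexes, the exceptions being Ogn and Postn. Of the 12 ranked highest in SI, the immunoglobulin genes had too few UMIs for a comparison within the sexes, and the others were higher in SI in both. In male cells Olfml2b of the LI ranking (0.90) and Hsd11b1 of the SI ranking (-0.72, at 114 CPM in LI and 189 CPM in SI) were under 2-fold on the log2 scale of LI over SI.

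**Figure D5:**
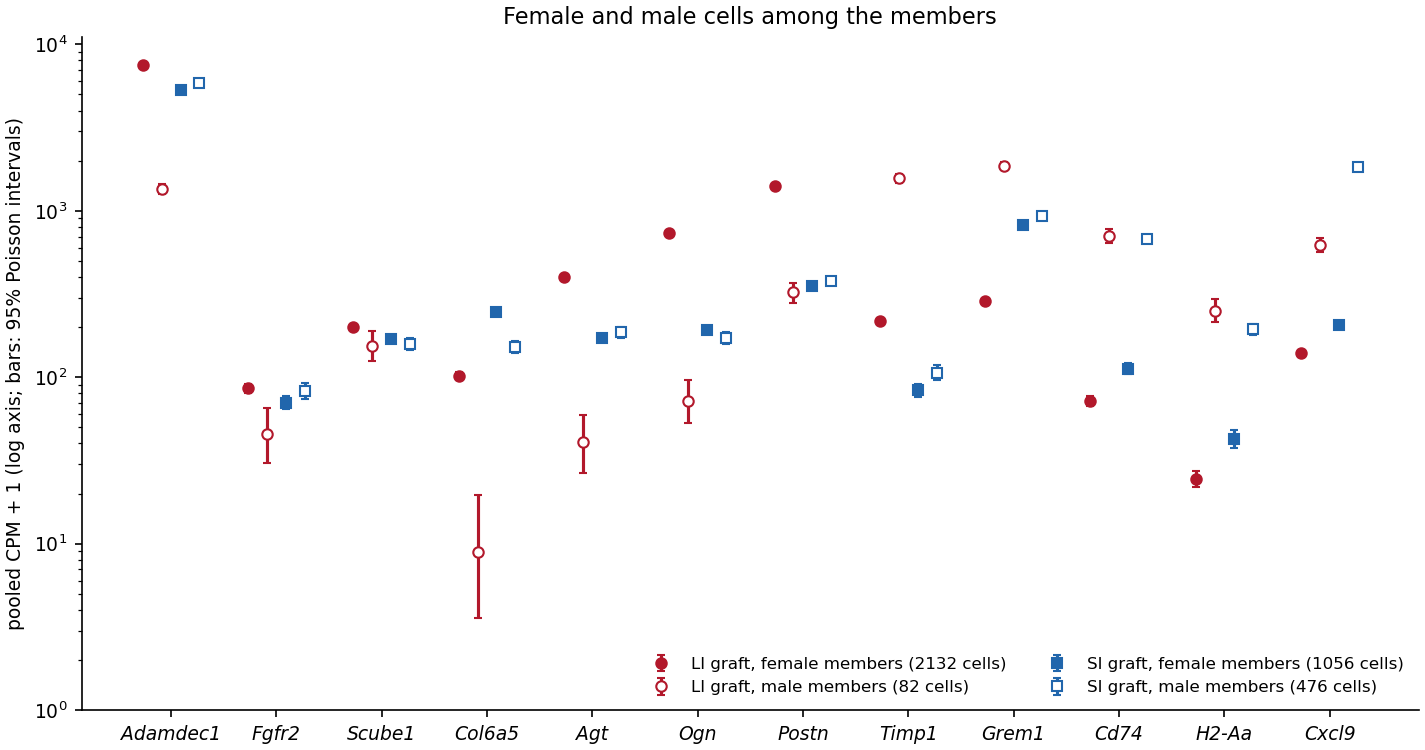
Pooled CPM plus 1 (log axis) of 12 genes in female (filled) and male (open) Fgfr2/Adamdec1 FB of LI (red circles) and SI (blue squares) grafts, with exact 95% Poisson intervals as bars. Adamdec1, Col6a5, Agt, Ogn and Postn were lower and Timp1 and Grem1 higher in the 82 male LI cells than in the female ones, and the MHC class II genes Cd74 and H2-Aa were higher in male cells of both libraries.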

How the data were processed

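The authors had aligned the reads of both 10x libraries to the mouse genome (mm10) with Cell Ranger, whose version was 3.1.0 per the file headers. The deposited values of a library were raw counts: whole numbers of UMIs per gene and barcode for 28692 features, with barcode and feature tables of names, no normalization and no cell type labels. Each UMI stands for 1 captured molecule. The study's methods remove debris and doublets by gene counts, read counts and mitochondrial expression, with no thresholds given in the sources used here, and the deposited barcodes still held cells outside the limits used here. Seurat 3 is named in the submitters' processing notes and was not used here.

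Cells were selected by the rule that opens the text. Counts of a group were summed and divided by all its UMIs (pooled CPM). Genes with at least 10 CPM in 1 compared group were compared by log2 ratios with 1 CPM added, and called at a 2-fold difference. The 58 symbols carried by more than 1 feature were left out. Shares have exact Clopper-Pearson, CPM exact Poisson and ratios exact binomial 95% intervals, all for counting error only. With 1 library per group, and cells not being replicates, no test was made. Doublets were not removed in the values given, since Scrublet (scanpy 1.11.5) called 0 barcodes by its own threshold in both libraries. An alternative removed the highest scores. Named genes were the 15 highest and 10 lowest against other Dcn-positive cells (at least 50 CPM in both libraries), the 12 furthest apart in each direction between LI and SI, the 10 most correlated with the markers, and genes of the rule and of 29 gene family lists, without sex-linked, haemoglobin and mitochondrial genes. Some genes of the lists are not reported here by name. Genes were looked up by Ensembl identifier in GENCODE vM21, where 433 of 433 were found, and promoters came from RefSeq (GRCm38.p6). The selection rule, gene lists and comparisons were chosen with earlier results of these data known. Scripts ran in Python 3.11.15 with scipy 1.17.1, numpy 2.4.6, matplotlib 3.10.9 and pandas 2.3.3, and an alternative used edgeR 4.0.16 TMM scaling under R 4.3.3. They were tested on simulated counts.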

Additional observations from a re-analysis of the deposited data

Results flagged for a closer look

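Rbp4 was 2-fold higher in the Fgfr2/Adamdec1 FB than in the other Dcn-positive cells in LI (log2 1.08) and 2-fold lower in SI (log2 -1.35), 1 of the 2 genes with opposite directions among 8434. In LI it was found in 34.9% of the selected cells and in 61.7% of BMP cells, and in SI in 6.87% and 37.3%. Against the remaining Dcn-positive cells, without BMP and Pi16 cells, it was higher in both libraries, at 188 against 63.7 CPM in LI and 12.9 against 9.89 CPM in SI. Saa3, an acute phase gene, was the other, with a log2 difference of -3.12 in LI and 1.87 in SI. The 10 richest cells held 80.4% of its UMIs in LI and 73.2% in SI. Within the sexes the LI difference of Rbp4 was 0.93 in female and 0.25 in male cells, and 90.7% of the selected LI cells were female, against 77.7% of the others. The part of the sex makeup was not tested, and neither was either difference between the libraries.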

How the results depend on the processing

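All counts rest on 1 library per gut segment, so embryo, graft, kit and library cannot be told apart from segment, and UMI depth limits genes near 10 CPM. The share of Dcn-positive cells that met the rule, 25.3% in LI and 27.3% in SI, became 24.1% and 26.2% with limits of 200 genes and 20% mitochondrial UMIs, 15.4% and 17.8% when cells were thinned to 2000 UMIs, 21.7% and 24.4% at 4000 UMIs, 7.85% and 11.5% with 3 markers, 21.4% and 24.2% without Fgfr2, 8.14% and 12.1% without Adamdec1, 14.0% and 19.0% without Scube1, 22.8% and 22.3% without Col6a5, 26.5% and 29.0% with 3 Dcn UMIs, 28.8% and 31.3% with no exclusion, 28.4% and 26.5% in female cells and 9.90% and 28.7% in male cells. LI was thus above SI with Col6a5 left out and in female cells, and below it in the other alternatives tried. The 53 genes higher in both libraries became 35 with a pseudocount of 5 CPM and 20 at 50 CPM, and the 117 lower genes 36 at 50 CPM and 267 at 1 CPM. The 163 genes higher in LI became 246 on thinning to 2000 UMIs, 54 at 50 CPM, 346 at 1 CPM and 557 in male cells, and the 194 higher in SI became 78, 342 and 856 at 50 CPM, at 1 CPM and in male cells. Doublet removal (9.26% and 7.70% of barcodes, including 248 LI and 182 SI Fgfr2/Adamdec1 FB) gave 62, 141, 188 and 200 genes in the order above, and TMM scaling 51, 120, 169 and 191. Male cells alone, leaving out the shared barcodes and leaving out the cell rich in Igkc were chosen after the data had been seen, and the last 2 moved no count by over 1.5 times.

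Of 254 values of single genes with a 2-fold difference, 236 kept their direction in every alternative. In male cells alone, with 82 LI cells, the LI over SI value turned for Ogn (-1.25), Postn (-0.22), Mmp11 (-0.48), Col6a4 (-0.31), Fmod (-0.54), Hpgd (-1.34), C2 (0.10), C7 (0.83), Cxcl5 (0.16), Cxcl13 (0.11), H2-Aa (0.37), H2-Ab1 (0.36), H2-Eb1 (0.35) and Cd74 (0.058), and the LI difference to the other Dcn-positive cells turned for Inhba (0.34), Rspo1 (0.29) and Mmp3 (1.92). Mmp9 turned in LI on thinning (0.98 and 0.24). The causes were not tested.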
